A study of Mus musculus with 10 samples.

Results

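Chgb, Rab5a, Uhrf1bp1l and Cav2 encode proteins that act in secretory granules, endosomes, lipid transfer and caveolae. They were taken as a set from the genes with a named probe on the testis arrays described here. The choice was made with earlier results of these data known. They are 4 of the 45 genes that carry a name on the arrays' mouse probes, and each was found through the RefSeq mRNA accession printed with its probe: NM_007694 for Chgb (probe A_51_P191669), NM_025887 for Rab5a (A_51_P117604), NM_029166 for Uhrf1bp1l (A_51_P274635) and NM_016900 for Cav2 (A_51_P279552). The arrays measured testis RNA of male C57BL/6J mice aged 3 months in 2 groups of 5. Pregnant females had received a daily injection under the skin from day 14 to day 19 post coitum. In the testosterone group this was testosterone at 2.5 mg/kg body weight, and in the control group it was the solvent, sesame oil with benzyl benzoate. The RNA of each testis was separated into an immunoprecipitated fraction (IP) and the supernatant that remained (Sup). Both were hybridised to 1 array per mouse, IP in Cy5 and Sup in Cy3, so that each array gives a ratio within 1 sample. The antibody, the dam and the litter were not given in the sources used here. The samples are described as biological replicates and were treated as independent. If littermates were among them, the tests below count them as separate animals. Dyes were not swapped, so the dye and the fraction cannot be told apart, and in whole testis fewer cells of a type and less RNA per cell cannot be told apart.

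Vesicle traffic carries cargo out of the cell through the Golgi and secretory granules and into it through endosomes and caveolae. In the testis, spermatids build the acrosome from Golgi-derived vesicles, and Sertoli cells take up residual cytoplasm and junction proteins by endocytosis. Chromogranin B (Chgb) is a granin, an acidic protein stored in the dense-core granules of endocrine and nerve cells. Rab5a is a small GTPase that governs the tethering and fusion of early endosomes. Uhrf1bp1l encodes a bridge-like lipid transfer protein that is found on endosomal vesicles. Caveolin 2 (Cav2) is a membrane protein that forms caveolae together with caveolin 1.

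The upstream sequence of all 4 genes was found in the RefSeq table of promoters (build GRCm38.p6), and Chgb and Rab5a are shown because both hold a full cyclic AMP response element within the 250 bases before the transcription start. The arrays measured RNA and not promoter activity, and the motif was looked for after the sequences had been seen. Each stretch covers the 150 bases before the start on the plus strand, with the element TGACGTCA in capitals. It reads the same on both strands.
Chgb upstream stretch, chr2:132781492-132781641: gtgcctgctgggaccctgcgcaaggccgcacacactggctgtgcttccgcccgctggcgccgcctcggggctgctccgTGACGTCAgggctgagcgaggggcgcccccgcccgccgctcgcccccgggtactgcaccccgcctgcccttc
Rab5a upstream stretch, chr17:53479084-53479233: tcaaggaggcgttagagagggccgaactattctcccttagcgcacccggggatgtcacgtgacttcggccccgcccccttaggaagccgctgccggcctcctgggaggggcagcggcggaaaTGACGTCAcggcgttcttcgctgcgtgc
The element begins 72 bases before the start of Chgb and 28 bases before that of Rab5a. Of 32851 promoters searched over the same 250 bases, 508 (1.55%) held it. The letters were not found in that window of Uhrf1bp1l or Cav2. The GC box GGGCGG, searched on both strands, had 2 matches in Chgb, 1 in Rab5a, 2 in Uhrf1bp1l and 1 in Cav2, and 32.7% of all promoters held at least 1. The capitals overlap no GC box match.

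The probes of the 4 genes are printed at 10 places on each array, which gives 100 spots per gene. After spots marked as outliers had been left out, 90 were used for Chgb, 96 for Rab5a, 94 for Uhrf1bp1l and 94 for Cav2. The spots of an array were averaged on the log2 scale. They measure how well 1 hybridisation repeats, and the mouse is the replicate in every comparison. The median spot SD of the log2 ratio within an array was 0.145 for Chgb, 0.135 for Rab5a, 0.0930 for Uhrf1bp1l and 0.462 for Cav2. Chgb, Rab5a and Uhrf1bp1l were well above background in both fractions on all 10 arrays and at every spot used.

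Across the series, 67.62% to 74.99% of mouse probes were well above background in Sup. In IP the share was 71.28% to 75.61% on 8 arrays, and 61.59% and 63.65% on the arrays of testosterone replicates 4 and 5, which form slide 3 and were scanned apart from the rest. Slide 1 held control replicates 1 to 4, and slide 2 held control replicate 5 with testosterone replicates 1 to 3. Spats1 and Hyal3, listed here as spermatid markers, were the only 2 of 43 cell type markers that carry a name here. Both were well above background in both fractions on 10 of 10 arrays. So were 31715 of the 60691 mouse probes, and the detection of these 2 cannot check the labelled tissue. Markers of Leydig, Sertoli, endothelial and neuroendocrine cells were not analysed here.

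Chgb was the gene with the highest IP/Sup ratio of the 37 named genes that were well above background in both fractions on all arrays. Its IP signal, the background-subtracted and dye-normalised brightness of the spot, was 69567, 74057, 76938, 79533 and 84955 in control replicates 1 to 5. In testosterone replicates 1 to 5 it was 61003, 75948, 59202, 47638 and 50585. The Sup signal of the same probe was 1697, 1449.6, 2259.6, 1901.5 and 1944 in the controls and 1830.2, 2223, 1817, 1570.2 and 1491 in the testosterone samples. The IP signal was thus above the Sup signal in every mouse, and no IP value came near any Sup value. The quotient of the signals lay between 30.3 and 51.1.

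On the log2 scale, relative to the median of mouse probes on each array, the Chgb ratio averaged 5.22 ± 0.0665 (SE, n = 10), or 37.3-fold, with a 95% interval of 33.8-fold to 41.2-fold (limma, adjusted p = 4.17e-15). Of the 41344 probes tested, 80 (0.193%) had a higher ratio. Uhrf1bp1l averaged 2.87 ± 0.0593 (SE, n = 10), or 7.31-fold, with an interval of 6.69-fold to 7.99-fold (limma, adjusted p = 5.07e-14), and 3.37% of probes were higher. Rab5a averaged 2.64 ± 0.0887 (SE, n = 10), or 6.24-fold, with an interval of 5.47-fold to 7.13-fold (limma, adjusted p = 3.61e-12), and 4.23% of probes were higher. A probe was called on the IP side with an adjusted p under 0.05 and a ratio of at least 2-fold. All 3 genes that could be tested passed, where 8075 of the 41344 probes tested (19.5%) did. The 21 spike-in probes, RNA added in equal amount to both fractions, had mean log2 ratios of -1.56 to 1.40, with a median of -0.02. Each of the 3 genes lay above that range.

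**Figure D1:**
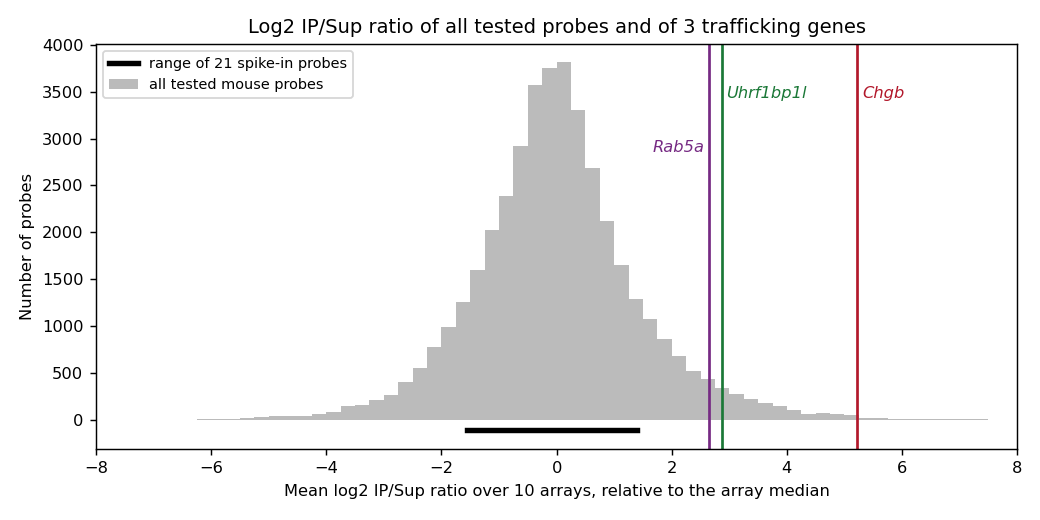
Distribution of the mean log2 IP/Sup ratio (x axis, relative to the array median, n = 10 arrays) over 41344 tested mouse probes, with the number of probes on the y axis. Vertical lines mark Rab5a at 2.64, Uhrf1bp1l at 2.87 and Chgb at 5.22, all to the right of the black bar, which spans the 21 spike-in probes from -1.56 to 1.40.

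The order of the ratios was the same on every array for Chgb and not for the other genes. Chgb was above Uhrf1bp1l on 10 of 10 arrays, by 2.35 ± 0.196 (log2, SD), and above Rab5a on 10 of 10 arrays, by 2.58 ± 0.356 (log2, SD). Uhrf1bp1l was above Rab5a on 7 of 10 arrays, with a mean difference of 0.23 ± 0.295 (log2, SD) that ran from -0.14 to 0.81. The spread of this difference between arrays exceeded its mean, and whether the mean differs from 0 was not tested. The 3 genes held positions 1, 2 and 3 among the 37 named genes. They were chosen with earlier results of these data known, so these positions do not test a trait of trafficking genes.

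Rab5a had an IP signal of 8367, 10054, 9687, 10248 and 9158 in control replicates 1 to 5, and of 6922, 8931, 8367, 4733 and 5023 in testosterone replicates 1 to 5. Its Sup signal was 2002, 1697, 1646, 1414 and 1204 in the controls and 1213.5, 1328, 1199, 886 and 676 in the testosterone samples. Both fractions were lowest in testosterone replicates 4 and 5, the arrays of slide 3. On those arrays the 75th percentile of all probes was also lower, and the levels given further on are scaled to it. The log2 IP/Sup ratio of Rab5a was 2.04, 2.57, 2.63, 2.86 and 2.92 in the controls and 2.60, 2.72, 2.88, 2.39 and 2.82 in the testosterone samples. Control replicate 1 was the lowest of all 10, and the groups overlapped.

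Uhrf1bp1l was bright in both fractions. Its IP signal was 92066, 83369, 95439, 102781 and 98587.5 in the controls and 76432, 93942, 82111, 88136.5 and 93973 in the testosterone samples. In Sup it was 12606, 10507, 13342, 13926 and 13146 in the controls and 10276, 12513, 12451, 12196 and 13961 in the testosterone samples. The log2 ratio was 2.85, 2.99, 2.91, 2.88 and 2.90 in the controls, an SD of 0.0536 (n = 5), and 2.98, 2.88, 2.80, 2.83 and 2.67 in the testosterone samples, an SD of 0.112 (n = 5). In the controls this spread was smaller than that of Chgb, 0.189, and Rab5a, 0.346, while in the testosterone samples Chgb spread less, at 0.0961. Whether the spreads differ was not tested.

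Cav2 was the exception: it was detected in Sup and not in IP. Its Sup signal was 244, 104, 169, 159 and 127 in control replicates 1 to 5, and 130.2, 149.9, 157.6, 100.96 and 91.5 in testosterone replicates 1 to 5. Sup was well above background on 10 of 10 arrays, at 89 of the 94 spots used. In IP, 1 of 94 spots was well above background, in testosterone replicate 3, and the probe was not well above background on any array. The IP signal was 21.7, 39.2, 41.5, 26.9 and 30.4 in the controls and 21.3, 21.5, 64.0, 24.3 and 20.9 in the testosterone samples. These values carry only a bound. Against the dimmest signal of a detected probe on each array, Cav2 was at least 1.55-fold higher in Sup than in IP over the 10 arrays. The bound was at least 1.68-fold in the controls and at least 1.44-fold in the testosterone samples. It was taken on means of log2 signals after loess and between-array normalisation. These were 7.09 in Sup against a limit of 6.45 in IP, where the measured IP mean was 4.89. The bound makes no allowance for the spread of the Sup values. Their SD was 0.308 over the 10 arrays, 0.447 in the controls and 0.0706 in the testosterone samples. With no dye swap it is also open to a dye effect. Cav2 could not be tested for its ratio.

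**Figure D2:**
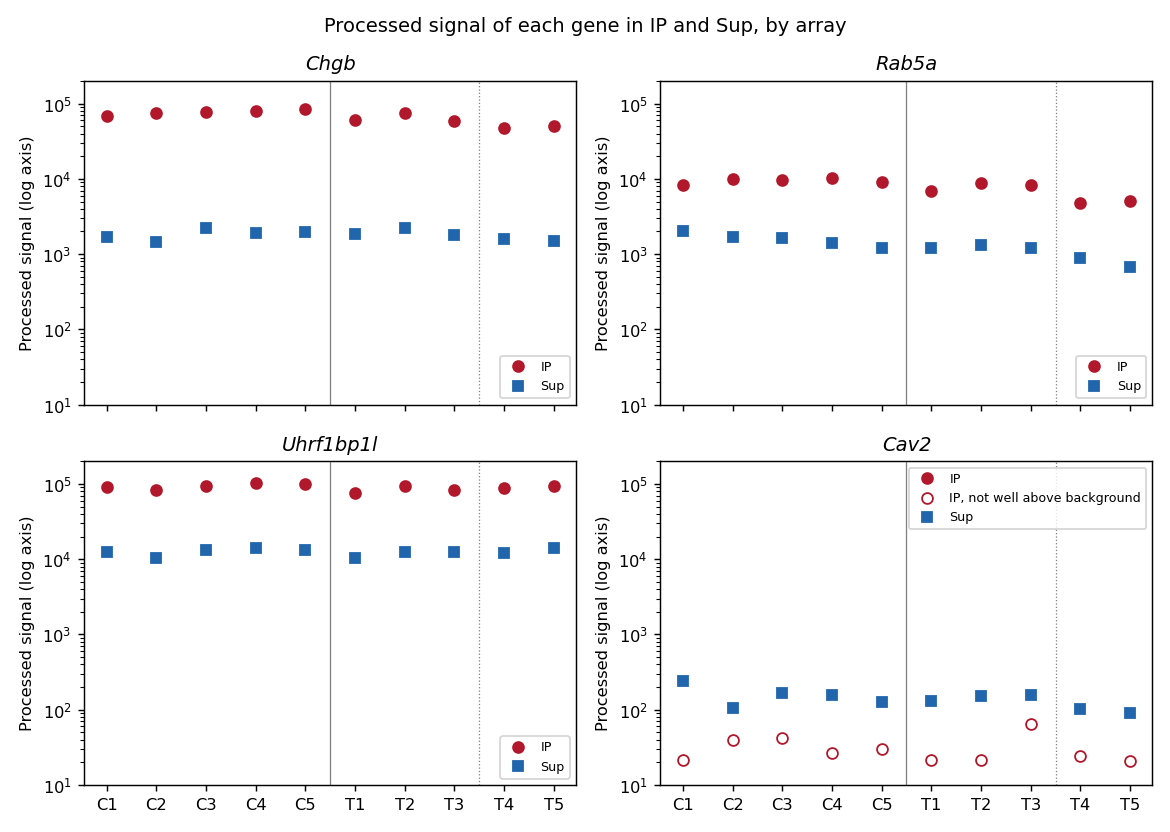
Processed signal (y axis, log scale) of each gene in IP (circles) and Sup (squares) on every array, with C1 to C5 for the control and T1 to T5 for the testosterone replicates and the arrays scanned apart to the right of the dotted line. IP lies above Sup on all 10 arrays for Chgb, Rab5a and Uhrf1bp1l, and the open circles of Cav2 are IP values that are not well above background; heights are not comparable between genes.

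Which named genes had a profile most like each of these was measured over 20 values, the log2 IP and Sup levels on 10 arrays, each profile centred on its own mean. The measure was the root mean square difference from each of the other 36 named genes. The IP/Sup step is part of each profile, so it weighs heavily in this measure. Chgb had no close neighbour: Uhrf1bp1l was nearest at 1.20 and Rab5a next at 1.33, where the median of the 36 was 2.60. Rab5a was nearest to Cep41, a centrosomal and ciliary protein gene, at 0.324, and then to Uhrf1bp1l at 0.449, with a median of 1.33. Uhrf1bp1l was nearest to Rab5a at 0.449 and then to Cep41 at 0.466, with a median of 1.46. Cep41 itself had a mean log2 IP/Sup ratio of 2.18. The rest of the trafficking machinery could not be set beside these genes: of 66 genes in 6 lists of granins, early endosome proteins, other Rabs, caveolar proteins, lipid transfer proteins and coat proteins, the 4 described here were the only ones with a name on a probe used.

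The comparison of the groups asks whether exposure to testosterone before birth went with a different level of these transcripts in the adult testis, or with a different division between IP and Sup. None of the genes tested, 3 for the ratio and IP level and 4 for the Sup level, passed an adjusted p of 0.05 for the IP/Sup ratio, the IP level or the Sup level, the levels being log2 signals relative to the 75th percentile of each array and fraction. Over all probes, 0 of 41344 passed for the ratio (0%), 1 of 44303 for the IP level (0.00226%) and 0 of 44612 for the Sup level (0%). At an unadjusted p under 0.05 the limma fits gave 2496 probes for the ratio, 6126 for the IP level and 4992 for the Sup level.

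The Chgb ratio was 5.34, 5.68, 5.16, 5.39 and 5.44 in control replicates 1 to 5 and 5.14, 5.07, 5.10, 4.90 and 5.01 in testosterone replicates 1 to 5 (log2, relative to the array median). Every testosterone value lay below every control value, with a gap between the nearest pair that is small beside the spread within the controls. The same holds for 175 of the 39323 probes with a value on every array (0.445%). The means were 5.40 ± 0.189 and 5.04 ± 0.0961 (SD, n = 5 each), a difference of -0.36 ± 0.133 (SE), with an interval of -0.65 to -0.07. Its p was 0.0185 in limma before adjustment, a level that 3.42% of probes reached in this direction, and 0.794 after it. Without centring on the array median, the quotient of the signals was 34.0 to 51.1 in the controls and 30.3 to 34.2 in the testosterone samples, and the groups overlapped. With centring on spike-ins the difference was -0.28 ± 0.147 (SE). Relative to the array median it was -0.30 ± 0.151 (SE) without slide 3 and -0.34 within slide 2, which holds 1 control. The 21 spike-in probes differed between the groups by -1.36 to 0.38 in the same ratio, with a median of 0.03 and a second lowest value of -0.50, and the Chgb difference lies within that range.

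Each fraction of Chgb was also compared on its own. The log2 IP level was 5.41, 5.47, 5.50, 5.56 and 5.72 in the controls and 5.45, 5.53, 5.18, 5.46 and 5.55 in the testosterone samples, a difference of -0.10 ± 0.102 (SE; limma, adjusted p = 0.648). The log2 Sup level was 0.06, -0.19, 0.43, 0.19 and 0.28 in the controls and 0.41, 0.45, 0.18, 0.53 and 0.46 in the testosterone samples, a difference of 0.25 ± 0.131 (SE; limma, adjusted p = 0.447). The testosterone values of both fractions overlapped the controls. All 5 lay above the control mean in Sup, and 3 of 5 lay below it in IP. The share of probes with such counts was not taken, and 14.4% of probes tested had a higher Sup difference. How the ratio difference divided between the fractions was not stable: within slide 2 the IP difference was -0.33 and the Sup difference 0.07, while without slide 3 they were -0.14 and 0.20. The IP difference was also -0.40 with quantile normalisation and -0.31 with scaling to spike-ins. That scaling moved the median IP difference of all probes tested from -0.0313 to -0.245. The Chgb IP difference was -0.05 without control replicate 5 and -0.03 without testosterone replicate 3. The Sup difference of Chgb was 0.17 without control replicate 2.

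The mean of Rab5a was lower in the testosterone samples in both fractions, and neither difference passed the threshold. Its log2 IP level was 2.355, 2.59, 2.51, 2.60 and 2.50 in the controls and 2.31, 2.44, 2.36, 2.13 and 2.21 in the testosterone samples. In testosterone samples 5 of 5 values lay below the control mean, and the share of probes with that count was not taken. The difference was -0.22 ± 0.0946 (SE), with an interval of -0.43 to -0.01, and 79.4% of probes tested had a higher one. Its p was 0.0393 in limma before adjustment, a level that 8.99% of probes reached in this direction, and 0.349 after it. The groups overlapped, where 2.25% of the 42281 probes with a value on every array had all testosterone values below all controls. The Sup level was 0.30, 0.03, -0.02, -0.24 and -0.41 in the controls and -0.18, -0.29, -0.42, -0.30 and -0.68 in the testosterone samples, a difference of -0.31 ± 0.148 (SE; limma, adjusted p = 0.444). These groups overlapped too, where 1.80% of probes did not in this direction, and 7.65% of probes were lower at an unadjusted p under 0.05. The ratio differed by 0.08 ± 0.177 (SE, log2; limma, adjusted p = 0.928). Without slide 3 the IP difference was -0.14 and the Sup difference -0.23, and within slide 2 they were -0.13 and 0.11. With scaling to spike-ins the IP difference was -0.43, where the median of all probes tested moved from -0.0313 to -0.245.

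**Figure D3:**
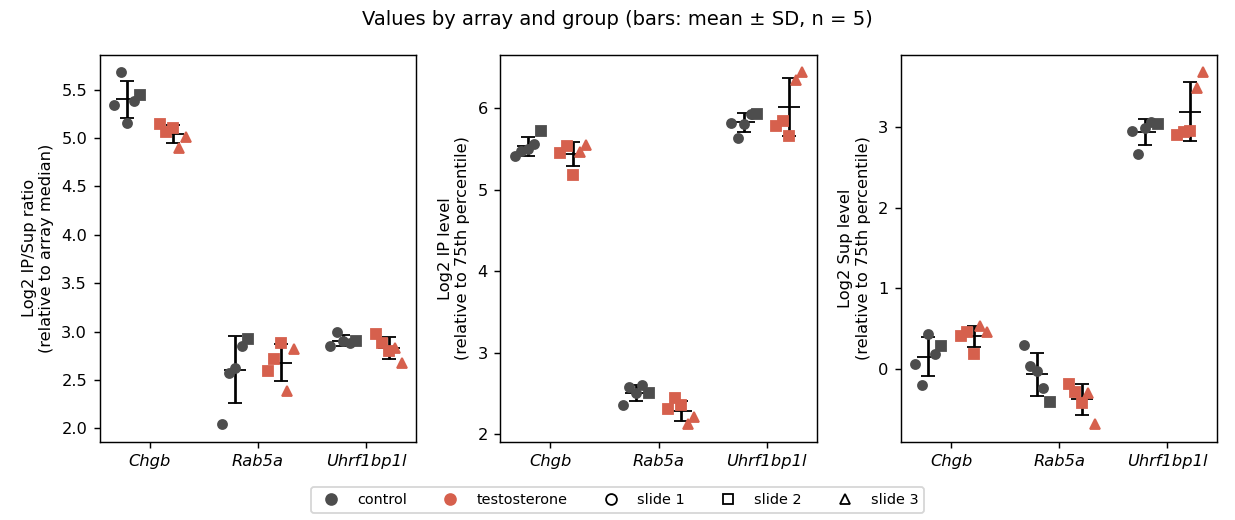
Log2 IP/Sup ratio, log2 IP level and log2 Sup level (y axes) of Chgb, Rab5a and Uhrf1bp1l in each control (grey) and testosterone (red) sample, with symbols for the slide and bars for mean ± SD (n = 5). The groups separate for the Chgb ratio alone, and the slide 3 values of Uhrf1bp1l stand above all others in both fractions.

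The levels of Uhrf1bp1l stood apart on slide 3. Its log2 IP level was 5.81, 5.64, 5.81, 5.93 and 5.93 in the controls and 5.78, 5.84 and 5.66 in testosterone replicates 1 to 3, but 6.35 and 6.44 in replicates 4 and 5. In Sup it was 2.95, 2.66, 3.00, 3.06 and 3.04 in the controls, 2.90, 2.95 and 2.96 in testosterone replicates 1 to 3, and 3.49 and 3.68 in replicates 4 and 5. On slide 3 the processed IP signals of this probe lay within the range of the other arrays, and its Sup signal was the highest of all 10 in testosterone replicate 5 (13961, next to 13926 in control replicate 4) and within the range in replicate 4. The 75th percentile to which levels are scaled was 1084 and 1082 in IP there, against 1393 to 1699.7 on the other arrays, and its part in the levels was not tested. Over all 5 testosterone samples the difference was 0.19 ± 0.158 in IP (SE; limma, adjusted p = 0.564) and 0.25 ± 0.169 in Sup (SE; limma, adjusted p = 0.493). Without slide 3 these became -0.07 and -0.01. The ratio, which sets both fractions of 1 array against each other, differed by -0.07 ± 0.119 (SE; limma, adjusted p = 0.893) with all arrays and by -0.02 without slide 3. All slide 3 arrays are testosterone samples. For the levels and the ratio, the scan and the group can thus be separated only through the other arrays.

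Cav2 could be compared in Sup alone. The log2 Sup level was -2.74, -3.99, -3.31, -3.39 and -3.65 in the controls and -3.40, -3.44, -3.35, -3.43 and -3.57 in the testosterone samples. The means were -3.41 ± 0.463 and -3.44 ± 0.0822 (SD, n = 5 each), and the testosterone values lay inside the range of the controls. The difference was -0.02 ± 0.192 (SE; limma, adjusted p = 0.959), with an interval of -0.44 to 0.40 before adjustment. A change within that interval is not excluded. The interval does not give the smallest change that these arrays could detect.

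Spats1 and Hyal3, listed here as spermatid markers, differed by -0.28 and -0.46 in log2 IP level (testosterone minus control). In log2 Sup level they differed by -0.33 and -0.48. The sign is that of Rab5a, but 55.8% of all probes tested in IP and 57.2% in Sup were also below 0. Chgb in Sup (0.25) and Uhrf1bp1l in IP (0.19) and Sup (0.25) had the other sign. In IP the values of Spats1 were -0.91 to -0.67 in the controls and -1.63 to -0.77 in the testosterone samples. Those of Hyal3 were -2.09 to -1.84 and -2.61 to -2.30. The Hyal3 groups did not overlap in IP, which holds in this direction for 2.25% of probes with a value on every array. In Sup the values of Spats1 were -1.07 to -0.25 in the controls and -1.29 to -0.84 in the testosterone samples. Those of Hyal3 were -2.27 to -1.72 and -2.72 to -2.41. The Hyal3 groups did not overlap in Sup either, which holds in this direction for 1.8% of probes. Whether the makeup of the tissue took part in the differences of Rab5a was not tested.

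**Figure D4:**
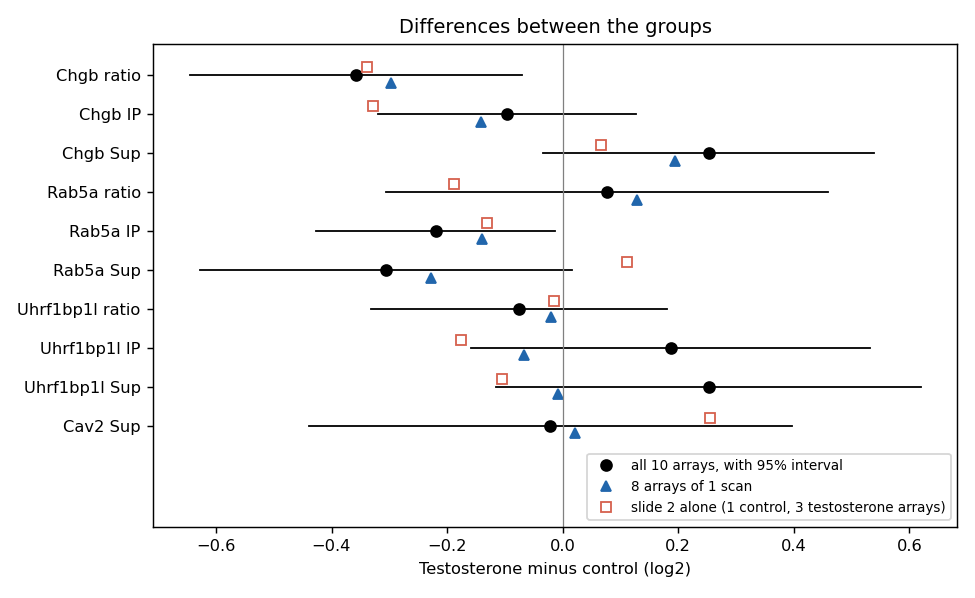
Testosterone minus control difference (x axis, log2) of each gene in the IP/Sup ratio, IP level and Sup level, with the estimate over all 10 arrays and its 95% interval (circles and lines), the estimate over the 8 arrays of 1 scan (triangles) and that within slide 2 (open squares). Over all 10 arrays, the intervals of the Chgb ratio (-0.65 to -0.07) and the Rab5a IP level (-0.43 to -0.01) lie below 0 before adjustment. The triangles of the Uhrf1bp1l levels lie near 0, and triangles and squares are drawn without intervals.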

How the data were processed

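RNA of 10 testes was measured on 2-colour arrays, 1 per mouse, and samples were grouped by their titles. Spots were read by the authors in Agilent Feature Extraction (11.0.1.1 in the submitters' processing notes and in the headers). The deposited processed signal is a linear intensity from which background was subtracted and which was dye-normalised by a linear and lowess step, per the file headers. Deposited flags of 0 or 1, used as other values, mark a spot as saturated, as an outlier or as well above its background. The authors' value table holds log2 values: in all 44264 rows they equal the Cy5 processed signal on that scale less a constant for the array (within 0.001), whose origin is unknown. Its column medians were 1.47, 2.19, 2.22, 1.89 and 2.25 in control replicates 1 to 5 and 2.03, 1.88, 1.26, 1.98 and 1.38 in testosterone replicates 1 to 5. It holds none of the 4 genes and served as an alternative for the count of IP level calls.

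Of 61537 spots per array that are not controls, 348 to 694 marked as outliers were left out, and none used was saturated. A probe counted as well above background on an array if at least 0.5 of its spots did, and was tested if it did on at least 5 arrays (in both channels for the ratio). The ratio was log2 Cy5 over Cy3 minus the array median over 60691 mouse probes. The level was log2 signal minus the 75th percentile. Tests used lmFit and eBayes of limma 3.58.1 (R 4.3.3) over all 10 arrays, with Benjamini-Hochberg adjustment over all probes tested and a threshold of 0.05. The functions were tested on simulated data. The number of arrays limits the precision.

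Names came from accessions matched to a RefSeq table of build GRCm38.p6. The array design names mm9, and the only coordinates given are those of the RefSeq promoters. The 4 genes are always named, with the 2 most alike named genes of each. The genes, lists and tests were chosen with earlier results of these data known. Alternatives were another background correction, normalisation, spike-in scaling or filter, slide and scan, a replicate block, and leaving out each array. Replicate numbers were taken only to name samples, so the main fits did not pair them. Same-number correlations of deviations were not all over 0.1, which cannot exclude a pairing. Figures were drawn with Python.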

Additional observations from a re-analysis of the deposited data

Results flagged for a closer look

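Among 24 groups of 5 values (4 genes, 3 quantities, both groups), 2 held a sample whose gap to its neighbour exceeded Dixon's 95% critical value of 0.71 of the range, and chance alone flags about 1 group in 20. The log2 IP level of Chgb was 5.18 in testosterone replicate 3, below the next value of 5.45 and the highest of 5.55. The log2 Sup level of Uhrf1bp1l was 2.66 in control replicate 2, below the next value of 2.95 and the highest of 3.06.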

How the results depend on the processing

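For the 4 genes, 13 results were recomputed under 257 combinations of result and alternative. Of these, 229 kept their direction and their side of the threshold, 28 turned direction without passing it, and 0 gained or lost a call. The combinations are not independent, and the changes of filter and the replicate block could not move a gene's estimate. Only the ratios of Chgb, Rab5a and Uhrf1bp1l against 0 had a call to lose. The log2 IP/Sup ratio stayed on the IP side throughout, at 4.65 to 5.39 for Chgb, 2.04 to 2.81 for Rab5a and 2.65 to 3.04 for Uhrf1bp1l. The Chgb ratio difference stayed between -0.42 and -0.28. With slide as a block it was -0.34 with an SE of 0.244, against 0.133 in the main fit. Only slide 2 held both groups, with 1 control, so these arrays did not resolve the difference from that of the slides. Slide as a block and slide 2 alone gave the same estimates: -0.19 for the Rab5a ratio, 0.11 for Rab5a Sup, -0.18 and -0.11 for Uhrf1bp1l IP and Sup, and 0.26 for Cav2 Sup. Leaving out slide 3 or blocking on the scan gave equal estimates, and the values were -0.0675 (Uhrf1bp1l IP), -0.0075 (Uhrf1bp1l Sup) and 0.0207 (Cav2 Sup). The Rab5a ratio difference was -0.0808 with normexp background correction, -0.0688 with normexp and loess (chosen after seeing the data) and -0.0630 without control replicate 1, over a range of -0.0630 to 0.16 when each array was left out. Cav2 Sup was 0.0483 with normexp, 0.0738 with quantile normalisation and 0.0475 with spike-in scaling, and -0.17 to 0.15 when each array was left out. Uhrf1bp1l IP was -0.19 with quantile normalisation and -0.0274 with spike-in scaling, and its ratio difference was 0.0042 with spike-in centring. Spike-in scaling moved the median IP difference of all probes from -0.03 to -0.25. The causes of these turns were not tested.

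Probes called on either side numbered 16785 (8075 IP, 8710 Sup), 10272 with normexp (4412 and 5860) and 9991 with normexp and loess (5297 and 4694), and centring on spike-ins turned the split to 9419 IP and 7312 Sup. The IP level count of 1 became 3 with no filter, 3 with a filter on all 10 arrays, 0 with spike-in scaling and 0 with the scan as a block. It became 471 (23 higher, 448 lower) in the authors' value table. There the median difference of all probes tested was -0.298, against -0.0313 in the main fit. When each array was left out, the count lay between 0 and 2. The Sup count of 0 became 2 with slide as a block and 2 within slide 2. The replicate block gave 0 probes for the ratio, 0 for the IP level and 0 for the Sup level, with a Chgb ratio difference of -0.36 (limma, adjusted p = 0.72). Deviations of same-numbered samples correlated at -0.0297 to 0.0408 (ratio), -0.0239 to 0.17 (IP) and -0.186 to 0.179 (Sup), and 0, 3 and 1 of 10 samples correlated best with their own number. Cav2 in IP is limited by signal over background: its median pixels were 19.75 to 30 over a local background of 15.5 to 18.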
